A study of Mus musculus with 27 samples.

Results

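MHC class II antigen presentation was followed through 6 genes, H2-Aa, H2-Ab1, H2-Eb1, H2-DMa, Cd74 and Ciita, in single-nucleus RNA-seq of the hippocampi of 27 mice. The 6 genes were taken by their symbols from the 31053 genes of the deposited count matrices, and each symbol matched 1 row. The choice used no threshold on a measured value, but was made with earlier results of these data known. Over the 204852 nuclei kept for analysis they gave 1183 (H2-Aa), 1197 (H2-Ab1), 1148 (H2-Eb1), 1895 (H2-DMa), 4928 (Cd74) and 3297 (Ciita) unique molecular identifiers (UMIs, counts of single captured transcripts).

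The study crossed P301S mice, which carry a human tau transgene with a mutation of inherited frontotemporal dementia under the mouse Prnp promoter, with mice lacking Cgas, the gene of a sensor of cytosolic DNA. By the labels, mice without the transgene were Cgas+/+ (n = 5), Cgas+/- (n = 2) or Cgas-/- (n = 2), and transgenic mice were P301S Cgas+/+, P301S Cgas+/- or P301S Cgas-/- (n = 6 each). The P301S groups held 3 males and 3 females each, the Cgas+/+ group 3 males and 2 females, and both groups of 2 held males. The Cgas deletion is inherited by every cell, the labels give no age, and each library came from 1 mouse.

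MHC class II molecules display peptides from endosomes to CD4 T cells. H2-Aa and H2-Ab1 encode the alpha and beta chains of the I-A molecule, and H2-Eb1 encodes the beta chain of I-E. Cd74, the invariant chain, fills the peptide groove and escorts the new molecule to the endosome, where the exchange factor to which H2-DMa contributes a chain helps peptides to bind. Ciita is the transactivator that switches on these genes, above all after interferon gamma, by docking on the RFX, NF-Y and CREB proteins bound at the X and Y boxes of their promoters. In the brain, border macrophages carry class II at rest, and microglia are known to acquire it in disease.

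In the GENCODE vM21 annotation of GRCm38, the assembly of the mm10 build to which reads were aligned, 4 of the genes lie near each other on chromosome 17. These are H2-DMa (chr17:34119541-34139101, plus strand), H2-Ab1 (chr17:34257689-34269419, plus strand), H2-Aa (chr17:34282744-34287823, minus strand) and H2-Eb1 (chr17:34305867-34316674, plus strand). Ciita lies at chr16:10480059-10528418 on the plus strand. Genes on the opposite strand overlap 3 of them, Brd2 with H2-DMa, Dexi with Ciita and Gm20513 with H2-Eb1. Whether the counting used strand is not given in the sources used here, so reads of these pairs may not be fully separated.

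The RefSeq promoter table (GRCm38.p6, 250 bases before to 50 after each start) held entries for 3 of the 6 genes, H2-Aa, H2-Eb1 and H2-DMa. The 130 bases before the start of H2-Aa (chr17:34287824-34287953, minus strand) and of H2-Eb1 (chr17:34305737-34305866, plus strand) are printed 5′ to 3′ because they hold the elements through which Ciita is known to act. Capitals mark the letters TNGCAAC, the core of the X box, and GATTGG, the core of the Y box.
H2-Aa: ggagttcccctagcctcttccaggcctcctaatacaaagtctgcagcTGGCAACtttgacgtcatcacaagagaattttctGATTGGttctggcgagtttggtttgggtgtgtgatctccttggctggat
H2-Eb1: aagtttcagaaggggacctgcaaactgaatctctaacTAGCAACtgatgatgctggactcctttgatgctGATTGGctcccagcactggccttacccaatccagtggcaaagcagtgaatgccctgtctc
In H2-Aa the X core began 83 bases and the Y core 49 bases before the start, with 27 bases between them, and in H2-Eb1 these distances were 93, 60 and 26 bases. The same order on either strand, X core before Y core with 10 to 30 bases between, was found in 31 of 32851 promoters (0.0944%), whereas the X core was present in 10.4% and the Y core in 16.1%. Neither of the 2 entries for H2-DMa held the pair, and 1 of them held a Y core. A match of letters is a description and does not show that a factor was bound.

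The libraries held 46091490 to 79484316 UMIs and 7246 to 14770 barcodes each, and 5840 to 12572 nuclei per library were kept. Of 241938 barcodes, 7324 sequences occurred in more than 1 library. Gm43049, a transcript picked because it separated the P301S labels in earlier results of these same libraries, and so no independent check of them, reached 2.72 to 17.5 CPM (UMIs of a gene per 1000000 UMIs of the same nuclei) in the 18 P301S libraries and 0 to 0.0828 CPM in the other 9. Cgas, listed as Mb21d1, had a mean of 38.3 ± 11.7 CPM (SD, n = 6) over the microglia-like nuclei of P301S Cgas+/+ mice. The mean was 43.6 ± 11.4 CPM in P301S Cgas+/- (n = 6) and 51.0 ± 6.95 CPM in P301S Cgas-/- mice (n = 6). Without the transgene it was 34.7 ± 1.87 CPM in Cgas+/+ (n = 5), 19.3 ± 4.56 CPM in Cgas+/- (n = 2) and 27.7 ± 7.86 CPM in Cgas-/- mice (n = 2). The order of the means thus differed between mice with and without the transgene, the removed part of the gene is not given in the sources used here, and the Cgas groups are named as labelled throughout.

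Transcripts of H2-Aa, H2-Ab1, H2-Eb1 and Cd74 were concentrated in the immune nuclei. Nuclei were clustered without the 6 genes and named by marker genes, which gave 11255 microglia-like, 156 macrophage-like and 289 T cell-like nuclei. The microglia-like nuclei held Csf1r at 1105 CPM and Inpp5d at 3021 CPM against 1.72 and 3.44 CPM elsewhere. The macrophage-like nuclei, found in all 27 libraries, held Mrc1, a mannose receptor of border macrophages, at 2290 CPM against 3.74 CPM in microglia-like nuclei. The T cell-like nuclei held Cd3e at 146 CPM, and Cd3e had no UMI in microglia-like nuclei.

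Cd74 was highest in macrophage-like nuclei at 960 CPM, followed by microglia-like nuclei at 190.3 CPM, T cell-like nuclei at 46.6 CPM and fibroblast-like nuclei at 13.2 CPM, with UMIs pooled over the 27 mice. Astrocyte-like, oligodendrocyte-like and excitatory neuron-like nuclei held 0.944, 2.25 and 0.423 CPM. Microglia-like nuclei were 5.49% of the kept nuclei and held 1.69% of all UMIs, but gave 75.4% of the Cd74 UMIs. The 156 macrophage-like nuclei, 0.0762% of the nuclei, gave 4.79%. The value of a single mouse ranged from 0 to 6912 CPM in macrophage-like nuclei, where a mouse had 1 to 31 nuclei, and from 0 to 806 CPM in microglia-like nuclei. The order of these classes therefore rests on pooled counts, and the ranges over mice overlapped.

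**Figure D1:**
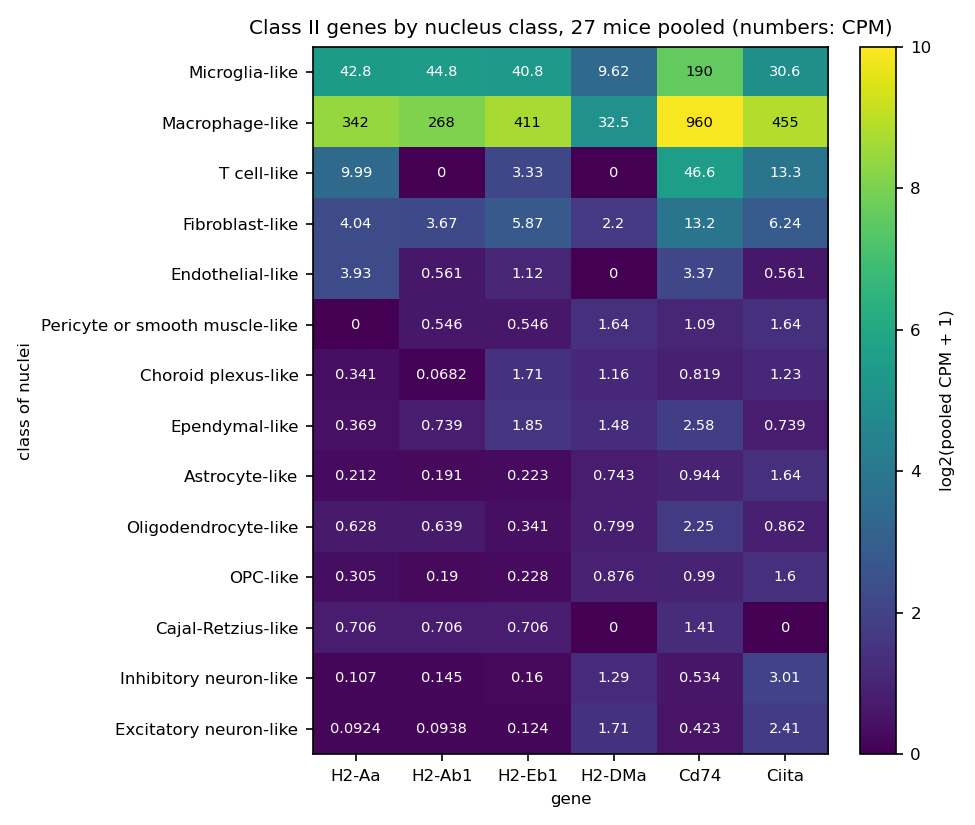
Pooled CPM of the 6 genes (columns) in 14 marker-named classes of nuclei (rows), summed over 27 mice, with color giving log2(CPM + 1) and the numbers giving CPM. Microglia-like and macrophage-like rows hold the highest values, from 9.62 to 190.3 CPM and from 32.5 to 960 CPM, while H2-DMa and Ciita also reach 1.71 and 2.41 CPM in excitatory neuron-like nuclei.

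The classical chains followed Cd74. H2-Aa reached 342 CPM in macrophage-like and 42.8 CPM in microglia-like nuclei, H2-Ab1 268 and 44.8 CPM, and H2-Eb1 411 and 40.8 CPM, while excitatory neuron-like nuclei held 0.0924 to 0.124 CPM of the 3 genes. Microglia-like nuclei gave 70.8% of the H2-Aa, 73.2% of the H2-Ab1 and 69.5% of the H2-Eb1 UMIs.

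Ciita and H2-DMa were spread more widely. Ciita reached 455 CPM in macrophage-like and 30.6 CPM in microglia-like nuclei, yet 53.0% of its UMIs came from excitatory neuron-like nuclei, which held 62.6% of all UMIs, and 11.95% from inhibitory neuron-like nuclei. Its level in excitatory neuron-like nuclei was 2.41 CPM pooled and 1.02 to 3.99 CPM by mouse, with a UMI in 2.17% of nuclei both with and without the transgene. H2-DMa gave 65.4% of its UMIs in excitatory neuron-like nuclei at 1.71 CPM and 9.92% in microglia-like nuclei at 9.62 CPM. The genes that overlap them on the other strand were abundant in excitatory neuron-like nuclei, with Dexi at 59.7 CPM and Brd2 at 19.3 CPM, and the part of these reads in the neuronal values of Ciita and H2-DMa was not tested. Gm20513, opposite H2-Eb1, gave 34 UMIs in all microglia-like nuclei.

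Microglia-like nuclei of P301S mice held far more class II transcripts than those of mice without the transgene, and the mice differed widely among themselves. Cd74 was at 14.5, 0, 0, 17.7 and 9.97 CPM in the 5 Cgas+/+ mice, at 14.999 and 3.21 CPM in Cgas+/- and at 0 and 3.40 CPM in Cgas-/-. It reached a lowest, median and highest value of 5.09, 154.7 and 806 CPM in P301S Cgas+/+, 0, 68.8 and 503 CPM in P301S Cgas+/- and 58.8, 214.0 and 470.4 CPM in P301S Cgas-/-. Of the 18 P301S mice, 15 lay above the highest of the 9 others. The 3 that did not were P301S Cgas+/+ replicate 2 at 5.09 CPM and P301S Cgas+/- replicates 5 and 6 at 10.98 and 0 CPM, so that all 6 P301S Cgas-/- mice lay above.

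The I-A chains gave the same picture. H2-Aa had 1 UMI among the 9 mice without the transgene, in Cgas+/+ replicate 5 at 1.99 CPM, and 836 UMIs among the 18 P301S mice. Its lowest, median and highest values were 0, 42.4 and 228 CPM in P301S Cgas+/+, 0, 16.02 and 114 CPM in P301S Cgas+/- and 14.7, 32.8 and 92.7 CPM in P301S Cgas-/-. The highest mouse, P301S Cgas+/+ replicate 3, was also the highest for Cd74. H2-Ab1 ran from 0 to 5.91 CPM without the transgene, and its medians were 36.3, 17.9 and 46.8 CPM in P301S Cgas+/+, P301S Cgas+/- and P301S Cgas-/-, with highest values of 234, 132 and 101 CPM. In both genes 15 of 18 P301S mice exceeded all 9 others.

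H2-Eb1 had 3 UMIs in the mice without the transgene and 795 in the P301S mice, where its medians were 42.6, 14.7 and 33.5 CPM in the same order of groups. Ciita, the transactivator, likewise had 3 UMIs in the former and 595 in the latter, with medians of 25.8, 12.3 and 32.1 CPM and highest values of 112, 70.4 and 69.3 CPM. For each of these genes 14 of 18 P301S mice exceeded all others. No UMI of H2-Aa, H2-Eb1 or Ciita was found in P301S Cgas+/+ replicate 2 or in P301S Cgas+/- replicates 5 and 6.

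H2-DMa did not share this range. It was at 2.46 to 11.8 CPM in the 9 mice without the transgene and at 0.963 to 25.2 CPM in the 18 with it, and 8 of the 18 exceeded the others. Its medians were 11.3, 7.71 and 11.4 CPM in P301S Cgas+/+, P301S Cgas+/- and P301S Cgas-/- against 4.96 CPM in Cgas+/+, so the groups overlapped.

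**Figure D2:**
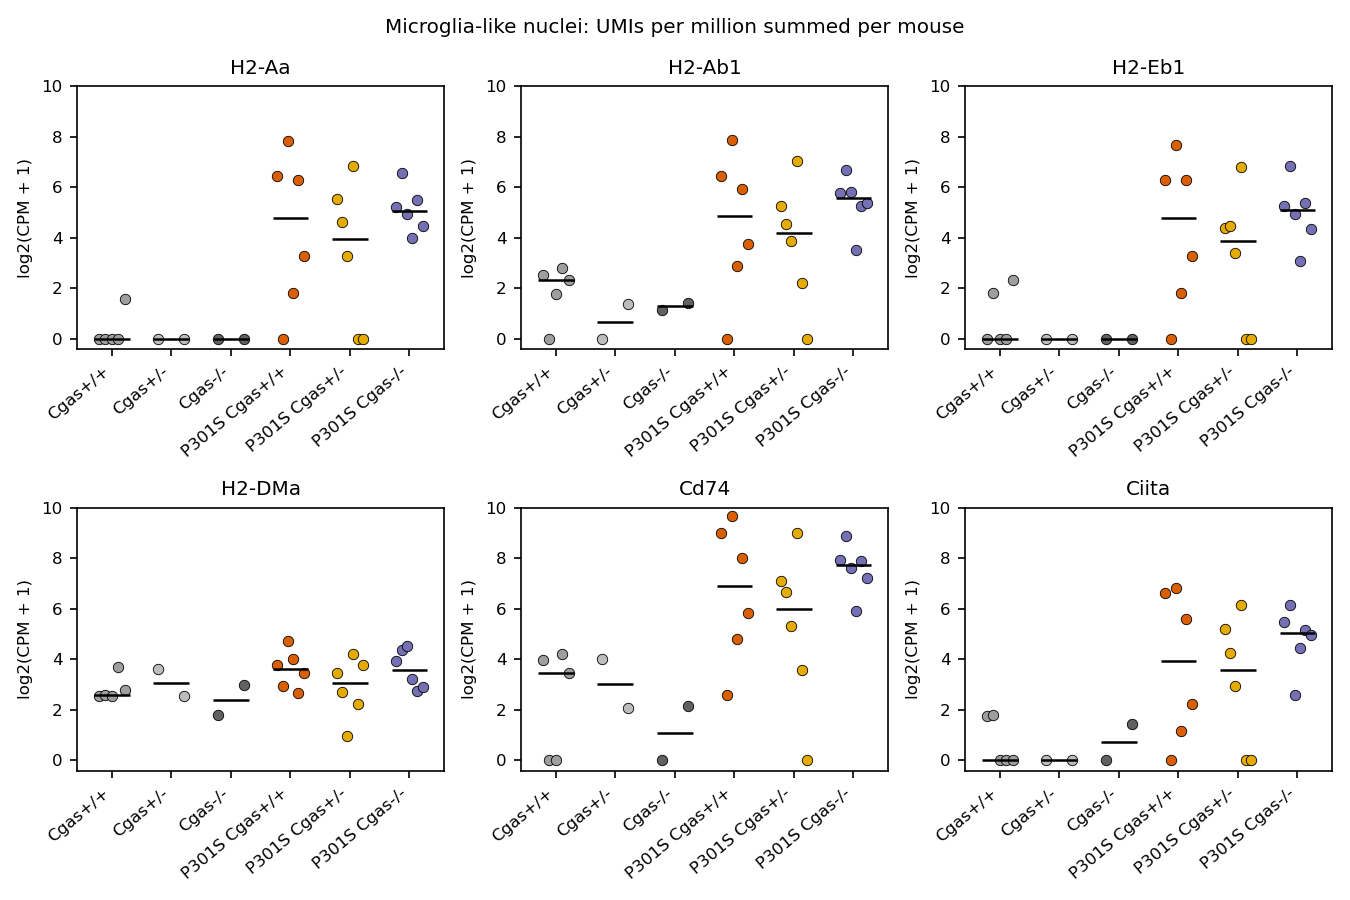
Level of each gene in microglia-like nuclei as log2(CPM + 1), with 1 point per mouse, the 6 genotype groups along the x axis and a bar at each group's median. In the P301S groups H2-Aa, H2-Ab1, H2-Eb1, Cd74 and Ciita spread from 0 or near 0 to between 112 and 806 CPM, whereas H2-DMa stays between 0.963 and 25.2 CPM.

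UMIs were summed per mouse and tested with edgeR's quasi-likelihood test with sex as a covariate, with Benjamini-Hochberg adjustment over all genes tested and a call at an adjusted p under 0.05. Averaged over the Cgas genotypes, the 3 P301S groups against the 3 groups without it, 5 of the 6 genes rose in microglia-like nuclei, where 7.78% of 9627 genes tested rose. The log2 fold changes were 5.36 ± 1.28 (SE) for Cd74 (adjusted p = 0.0107), 5.91 ± 1.61 for Ciita (0.0225), 7.23 ± 2.01 for H2-Aa (0.0251), 4.44 ± 1.27 for H2-Ab1 (0.0268) and 6.71 ± 1.99 for H2-Eb1 (0.0346). H2-DMa stood at 0.67 ± 0.44 (adjusted p = 0.367) and did not pass. Only genes that met edgeR's filter on low counts were tested, which asks for counts in some mice of any group. H2-Aa, H2-Ab1, H2-Eb1 and Ciita had at most 2 UMIs in each mouse without the transgene. They entered through P301S mice, where they are high. Shares over all genes tested after this filter, here and for P301S Cgas+/+ against Cgas+/+, are thus no like-for-like background. Every SE given with an edgeR fold is the size of the log2 fold change divided by the square root of the test's F statistic. It was not estimated separately, and it is an approximation. The median log2 fold change was 5.63 over the 6 genes and 0.00197 over all genes tested.

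These calls leaned on the 4 mice that make up the Cgas+/- and Cgas-/- groups without the transgene. The study left these groups out of its own comparisons because of their size. In the average used here each group counts equally, whatever its number of mice. Without Cgas+/- replicate 2 or without Cgas-/- replicate 1 none of the 6 was called, without Cgas-/- replicate 2 only 1 was called and without Cgas+/- replicate 1 only 2 were called, while the log2 fold change of Cd74 stayed between 4.98 and 6.45 over all 27 refits. Calls fell over all genes too, with 2.28%, 3.75%, 4.70% and 5.07% of genes higher in these 4 refits in that order. In all immune nuclei, which add the macrophage-like and T cell-like nuclei, 4 of the 6 genes were called, where 7.43% of genes rose, with Cd74 at 3.82 ± 0.99 and H2-Eb1, which did not pass, at 3.12 ± 1.03 (adjusted p = 0.0545).

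Fitted folds of genes near 0 depend on the small count that edgeR adds, so the pooled rates are given beside them. Pooled over mice, P301S microglia-like nuclei held 243 CPM of Cd74 against 5.73 CPM, a ratio of 42.5 (95% exact interval 28.7 to 65.7). The ratio was 24.9 (13.5 to 52.1) for H2-Ab1, 57.0 (19.4 to 277) for Ciita, 76.2 (26.0 to 370.3) for H2-Eb1 and 240.4 (43.0 to 9507) for H2-Aa. H2-DMa had a ratio of 1.87 (1.23 to 2.98). The intervals cover counting error only, and the spread between mice is larger.

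The comparison of P301S Cgas+/+ with Cgas+/+, which asks what the transgene does with both copies of Cgas, gave folds of like size without a call. Cd74 had a log2 fold change of 4.97 ± 1.503 (adjusted p = 0.117), H2-Aa 6.59 ± 2.16 (0.144), Ciita 5.33 ± 1.83 (0.155), H2-Eb1 5.16 ± 1.87 (0.183) and H2-Ab1 4.11 ± 1.498 (0.184), with H2-DMa at 0.87 ± 0.58 (0.479), all by edgeR. None of the 6 genes was called, nor any of the 9333 genes tested (0.00%). At an unadjusted p under 0.05, 5 of the 6 genes were higher, as were 9.95% of all genes tested. DESeq2 called the same 5 genes higher, with 2.69% of all genes tested called higher. Without a filter on low counts edgeR also called these 5, with 2.98% of genes higher, but the SE of Cd74 was then 0.26 and not 1.503. The cause of that smaller SE was not tested. Without P301S Cgas+/+ replicate 2, the mouse at 5.09 CPM of Cd74, edgeR called Cd74 higher (1 of 6 genes), as were 3.59% of 9453 genes.

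**Figure D3:**
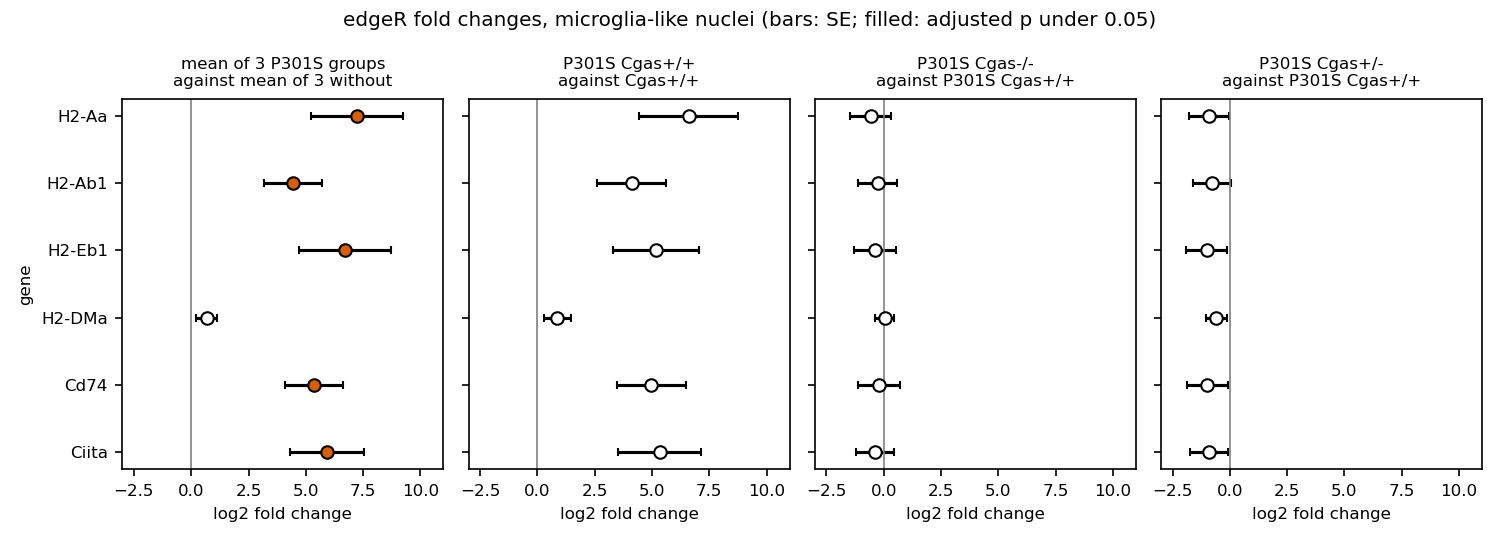
Log2 fold changes (x axis) of the 6 genes in microglia-like nuclei from edgeR in 4 comparisons, with bars for 1 SE and filled points for an adjusted p under 0.05. The 5 filled points, from 4.44 (H2-Ab1) to 7.23 (H2-Aa), are in the comparison averaged over the Cgas genotypes, and both comparisons of Cgas genotypes among P301S mice lie between -1.01 (H2-Eb1) and 0.05 (H2-DMa).

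Among P301S mice no change of the 6 genes with the Cgas labels was detected. P301S Cgas-/- against P301S Cgas+/+ gave a log2 fold change of -0.21 ± 0.91 for Cd74, -0.56 ± 0.89 for H2-Aa, -0.27 ± 0.83 for H2-Ab1, -0.37 ± 0.92 for H2-Eb1, -0.37 ± 0.82 for Ciita and 0.05 ± 0.42 for H2-DMa, each with an adjusted p of 0.9999 by edgeR. With 1 mouse left out each of the 6 changed sign in some refits, with Cd74 between -0.57 and 0.35. The P301S Cgas+/- mice lay lower, at -0.99 ± 0.90 for Cd74, -0.90 ± 0.87 for H2-Aa, -0.77 ± 0.82 for H2-Ab1, -1.01 ± 0.90 for H2-Eb1, -0.90 ± 0.84 for Ciita and -0.59 ± 0.46 for H2-DMa, again with adjusted p of 0.9999. With 1 mouse left out this fold of Cd74 ran from -2.50 to -0.27 and that of H2-Ab1 from -2.04 to 0.080. No gene was called in either comparison (0.00% of 9333 tested). With SE of 0.82 to 0.92 for the 5 genes other than H2-DMa, a doubling or a fall of the same size was not detectable with these mice. Without a filter on low counts edgeR called Cd74, H2-Aa and H2-Eb1 lower in P301S Cgas+/-, with 0.0931% of 21491 genes called lower. In that fit the SE of Cd74 was 0.16 and not 0.90, for a log2 fold change of -1.001, and the cause of the smaller SE was not tested. An SE of 0.16 is small beside the run from -2.50 to -0.27 with 1 mouse left out. The calls without the filter are therefore not read as a change.

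The spread was smallest in P301S Cgas-/-, where Cd74 averaged 224 ± 138 CPM (SD, n = 6) and no mouse lay below 58.8 CPM, against 275 ± 321 CPM in P301S Cgas+/+ and 131 ± 189 CPM in P301S Cgas+/-. The difference between the spreads was not tested. The test of whether the effect of the Cgas labels differed with the transgene called none of the 6 genes, nor any of the 9627 tested (0.00%), with Cd74 at 2.04 ± 4.24 on the log2 scale. Females and males did not differ by a called amount in any of the 6 genes, where 0.0857% of genes were called in microglia-like nuclei, and P301S males ran from 5.09 to 502 CPM of Cd74 and P301S females from 0 to 806 CPM.

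The deposited headers name Cell Ranger 3.0.2 for 12 libraries, all of males and 2 from each group, and 3.1.0 for the other 15. The Cgas+/- and Cgas-/- groups without the transgene, of 2 mice each, thus lay wholly in 3.0.2, against 2 of 6 mice in each P301S group. Within both sets the transgenic mice were higher, with medians of Cd74 of 187 against 3.31 CPM in the first (6 and 6 mice) and 103 against 9.97 CPM in the second (12 and 3 mice). With the version as a block, edgeR called the same number, 5 of 6, in the comparison averaged over Cgas genotypes, where 6.10% of genes rose.

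Microglial states separated the levels further. Subclusters of microglia-like nuclei, again built without the 6 genes, were described by lists of state markers, and these lists were applied after the levels of the 6 genes by subcluster had been seen. Homeostatic-like nuclei (4257), which express the genes of resting microglia, held 9.73 CPM of Cd74, disease-associated-like nuclei (2590), which express genes of plaque- and damage-related microglia such as Itgax and Gpnmb, held 512 CPM, and interferon-responsive-like nuclei (548) held 339 CPM. The remaining 3860 nuclei held 58.6 CPM. The largest of their subclusters, of 1386 nuclei with 42.7% from 1 mouse, held 74.0 CPM. The remaining nuclei also include a subcluster of 827 nuclei led by mitochondrial genes such as mt-Nd2. In 2 further subclusters, of 1292 and 259 nuclei, the leading genes include genes of neurons, such as Camk4 and Vsnl1. These 3 subclusters, led by mitochondrial or neuronal genes, were 18.6% of the microglia-like nuclei of P301S mice and 27.9% of those of the others. Without them edgeR again called 5 of the 6 genes higher in the comparison averaged over Cgas genotypes, where 8.69% of genes rose, with Cd74 at 5.46 ± 1.28, and none in P301S Cgas+/+ against Cgas+/+. Disease-associated-like nuclei were 1.26% of all kept nuclei and gave 59.1% of all Cd74 UMIs. Mice without the transgene had 0 to 5 of these nuclei each. The P301S mice lowest in Cd74, P301S Cgas+/+ replicate 2 and P301S Cgas+/- replicates 5 and 6, had 5, 12 and 1. The part of this mix of states in the differences over all microglia-like nuclei was not tested.

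Pooled over mice, the same order held for the chains and the transactivator. H2-Aa was at 1.70, 67.8 and 121 CPM, H2-Ab1 at 2.47, 66.8 and 124 CPM, H2-Eb1 at 1.24, 72.3 and 115 CPM and Ciita at 1.08, 46.1 and 90.5 CPM in homeostatic-like, interferon-responsive-like and disease-associated-like nuclei. H2-DMa was at 8.03, 14.5 and 12.6 CPM. The highest subcluster, of 111 nuclei from 10 mice with 45.0% from 1 mouse, held 1175 CPM of Cd74 and 328 CPM of Ciita. It passed 10 of the 15 disease-associated markers, and its leading genes include Slc7a2, H2-M2, Cspg4, Fn1, Cd36 and Flt1. Levels of the markers of other cells are given below only over all microglia-like nuclei, not for this subcluster. Macrophage-like nuclei pooled over all mice held 960 CPM of Cd74 and 455 CPM of Ciita. Those of the P301S groups alone held 1110.0 to 1288 CPM of Cd74. Within single mice with at least 20 nuclei of both states, Cd74 was higher in disease-associated-like than in homeostatic-like nuclei in 13 of 13 mice. Against interferon-responsive-like nuclei it was higher in 6 of 7 mice, as were H2-Aa and H2-Eb1, and H2-Ab1 and Ciita were higher in 7 of 7. The exception was P301S Cgas+/+ replicate 6, with 182 against 187 CPM of Cd74, and P301S Cgas+/- replicate 3, with only 13 interferon-responsive-like nuclei, had 46.6 against 352 CPM. Interferon-responsive-like nuclei held more Cd74 and H2-Eb1 than homeostatic-like nuclei in 8 of 8 mice with at least 20 nuclei of both states. H2-Aa and H2-Ab1 were higher in 6 of these 8 mice. Ciita was higher in 4, lower in 2 and equal in 2, so its pooled order was not general within mice. All of these are descriptions of clusters and were not tested.

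The order held at equal depth. After each nucleus was thinned to 1000 UMIs, leaving out 501 shallower nuclei of 11255, a Cd74 UMI was present in 30.3% of disease-associated-like, 19.9% of interferon-responsive-like and 0.854% of homeostatic-like nuclei (43.3%, 29.9% and 1.22% before thinning), with median depths of 2110, 1912 and 1459 UMIs. The share was 39.8% in macrophage-like nuclei (23 left out) and 0.0421% in excitatory neuron-like nuclei, a type that should lack Cd74, of median depth 9030 UMIs (0.371% before thinning). Over all microglia-like nuclei, 13.3% carried Cd74 after thinning in P301S mice and 0.350% in the others. A Cd74 UMI was present before thinning in 0.551% of excitatory neuron-like nuclei of P301S mice and in 0.0495% of those of the others, and free RNA from other nuclei in the droplets was not tested as a source.

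**Figure D4:**
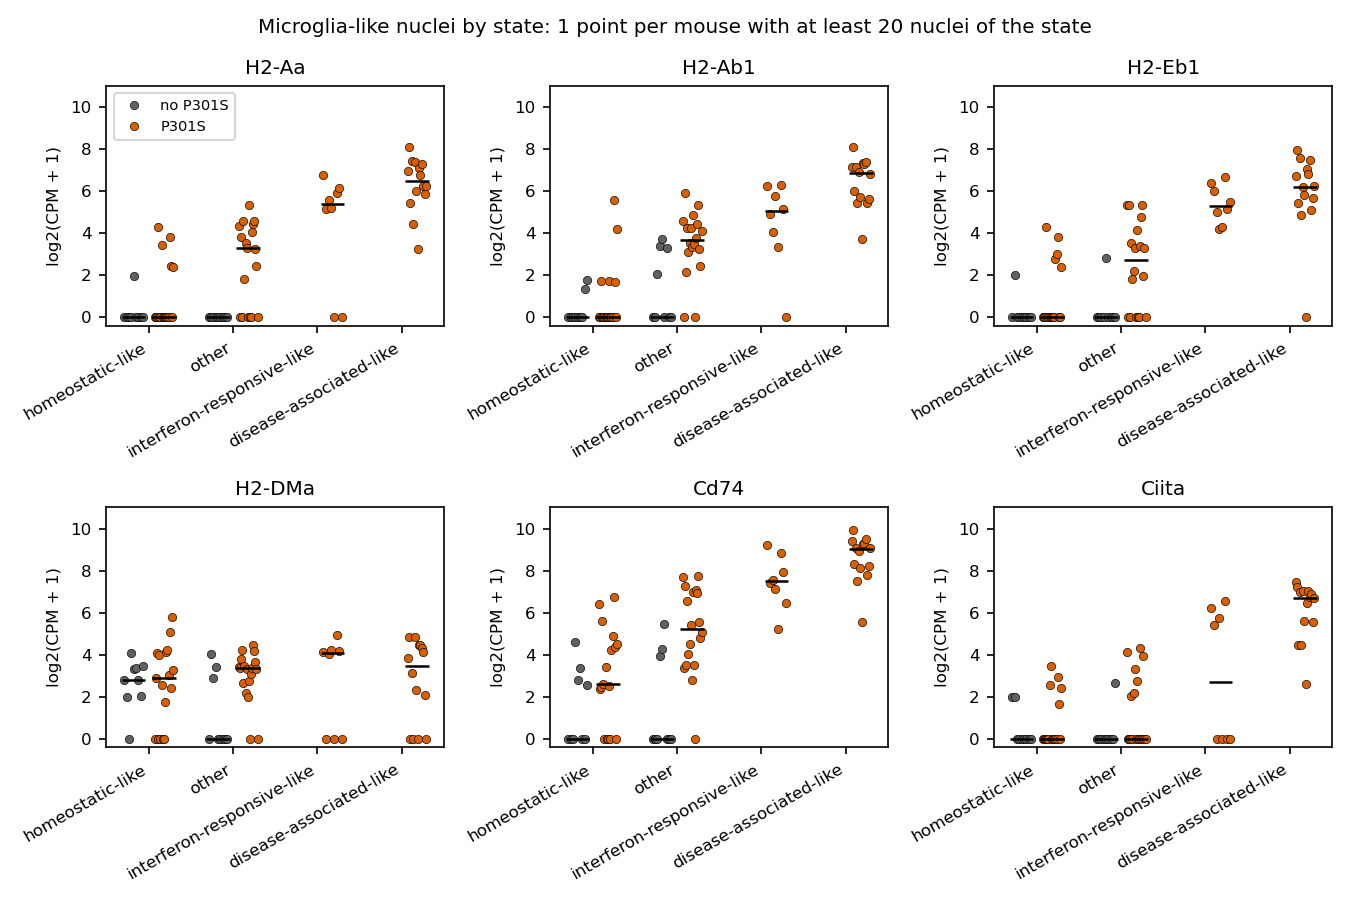
Log2(CPM + 1) of each gene by microglial state, with 1 point for each mouse that had at least 20 nuclei of the state, gray without and orange with the P301S transgene, and bars at medians. No mouse without the transgene had 20 disease-associated-like or interferon-responsive-like nuclei, and the 14 P301S mice that had 20 disease-associated-like nuclei lie between 46.6 and 977 CPM of Cd74.

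Within disease-associated-like nuclei the groups overlapped. Cd74 ran from 182 to 977 CPM with a median of 547 CPM in 5 P301S Cgas+/+ mice, from 46.6 to 605 CPM with a median of 385 CPM in 4 P301S Cgas+/- mice and from 217 to 721 CPM with a median of 537 CPM in 5 P301S Cgas-/- mice. The corresponding medians of Ciita were 124, 68.2 and 105 CPM. In homeostatic-like nuclei Cd74 reached 85.01 CPM in 1 P301S Cgas+/+ mouse (3 UMIs in 24 nuclei) and 106 CPM in 1 P301S Cgas-/- mouse (16 UMIs in 80 nuclei). It stayed at or below 9.76 CPM in the 6 P301S Cgas+/- mice and at or below 23.7 CPM in the 9 mice without the transgene.

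Pooled over mice, disease-associated-like and macrophage-like nuclei with a Ciita UMI held more of its targets. In disease-associated-like nuclei, the 331 with a Ciita UMI had 1250.0 CPM of Cd74 and 353 CPM of H2-Aa, against 399 and 85.9 CPM in the 2259 without, at median depths of 2121 and 2107 UMIs. H2-DMa was at 23.9 CPM (18 UMIs) against 10.9 CPM. In macrophage-like nuclei the 36 with Ciita had 2197 CPM of Cd74 against 564 CPM in the other 120. In excitatory neuron-like nuclei the 1703 with Ciita had 0.457 CPM of Cd74 (8 UMIs) against 0.423 CPM, and 0.114 CPM of H2-Aa (2 UMIs) against 0.0919 CPM. H2-Eb1 was at 0.286 CPM (5 UMIs) against 0.120 CPM and H2-Ab1 at 0.171 CPM (3 UMIs) against 0.0919 CPM in these neurons. The pooled values include differences between mice, which vary in Ciita and Cd74 together. Within the 11 mice with at least 5 disease-associated-like nuclei of both kinds, those with Ciita had more Cd74 and H2-Eb1 in 11 mice and more H2-Aa and H2-Ab1 in 10, while H2-DMa was higher in 5 and lower in 5. For macrophage-like nuclei 1 mouse had enough, and there H2-Ab1 was lower with Ciita. Nuclei of 1 mouse are not replicates, and no test was run.

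Macrophage-like nuclei carried class II with and without the transgene. Pooled Cd74 was 733 CPM in Cgas+/+ (53 nuclei), 240.5 CPM in Cgas+/- (8 nuclei) and 385 CPM in Cgas-/- (11 nuclei), against 1202, 1288 and 1110.0 CPM in P301S Cgas+/+, P301S Cgas+/- and P301S Cgas-/- (34, 25 and 25 nuclei). After thinning, Cd74 was present in 33.9% of these nuclei without and 44.6% with the transgene, and Ciita in 8.47% and 28.4%. H2-Aa was present in 13.6% and 33.8% and H2-Eb1 in 11.9% and 24.3%, while H2-Ab1 went the other way, with 23.7% and 17.6%, as did H2-DMa, with 1.69% and 0 of 74 nuclei. Before thinning all 6 were more often present with the transgene, including H2-Ab1 (22.2% without and 27.4% with) and H2-DMa (2.78% and 4.76%), at median depths of 1313 and 1673 UMIs. With 1 to 31 nuclei per mouse the difference was not tested.

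Markers of other cells that carry class II were read in the microglia-like nuclei. Of 9 macrophage markers Lyve1, Pf4 and Cbr2 had no UMI, and the summed level of the list was 306 to 676 CPM in P301S mice and 540.2 to 763 CPM in the others. That sum was mostly Maf (279 against 405 CPM pooled) and Stab1 (134 against 244 CPM), which microglia also express. The other 4 were higher in P301S mice, with Ms4a7 at 21.2 against 0.229 CPM, Mrc1 at 4.28 against 1.83 CPM, F13a1 at 1.98 against 0.458 CPM and Cd163 at 0.132 CPM (2 UMIs) against 0. Ms4a7 was also among the leading genes of a disease-associated-like subcluster. Of 7 dendritic cell markers Xcr1 and Ccr7 had no UMI and the sum was 41.0 to 71.8 CPM against 27.2 to 59.1 CPM. Pooled, Batf3 was at 31.8 against 25.7 CPM, Zbtb46 at 19.2 against 9.85 CPM and Clec9a at 0.857 against 0.229 CPM. Cd209a was at 0.0659 CPM (1 UMI) against 0, while Flt3 was at 6.98 against 7.10 CPM. For 6 B cell markers, each with a UMI, the sum, mostly Bank1 and Ighm, was 61.4 to 485 CPM against 441 to 579.9 CPM. Bank1 was among the leading genes of homeostatic-like subclusters. Cd79a, Ms4a1 and Pax5 had 3 UMIs each and Cd79b had 16. Of 6 markers of neutrophils or monocytes S100a8 and Retnlg had no UMI, and the sum, mostly Csf3r, was 587 to 1227 CPM against 576 to 769 CPM. Csf3r was among the leading genes of the main cluster of microglia-like nuclei. Of 11 T cell markers Cd3e, Cd3g, Cd3d and Cd8a had no UMI, and the sum, mostly Bcl11b, was 12.8 to 47.3 CPM against 17.4 to 40.1 CPM, with Skap1 at 4.61 against 2.75 CPM pooled. The part of such cells in the values was not tested beyond these levels.

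Other genes of the pathway were read from a list of 39, of which 36 were in the files and 23 were tested in microglia-like nuclei. Averaged over the Cgas genotypes, 9 of the 23 rose with the transgene, none fell and 14 did not pass, beside 7.78% of all genes that rose. The median log2 fold change of the 23 was 0.16, against 0.00197 over all genes.

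Among the loading factors H2-DMb1, the partner chain of H2-DMa, rose by a log2 fold change of 1.44 ± 0.42 (adjusted p = 0.0250, edgeR), from 9.63 ± 5.63 CPM (SD, n = 9) to 27.2 ± 14.7 CPM (n = 18), while H2-Ob, a chain that restrains peptide exchange, stood at 0.10 ± 0.34. Of the genes of antigen processing 4 of 6 rose. Ctsb, a lysosomal protease, rose by 1.42 ± 0.26 (adjusted p = 0.00241), Slc11a1, a metal transporter of phagosomes, by 0.93 ± 0.20, Ctsl by 0.87 ± 0.26 and Ctss, the protease that trims the invariant chain, by 0.32 ± 0.10 (adjusted p = 0.0298). The genes of this list with the highest level were Lgmn, an endosomal protease, at -0.14 ± 0.13, and March1, a ligase that removes class II from the surface, at -0.16 ± 0.10, and neither passed.

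None of the 4 tested genes of the factors that bind class II promoters passed, with Creb1 at 0.16 ± 0.11 and Nfyc, an NF-Y subunit, at 0.04 ± 0.12. Of 6 tested genes from interferon gamma to Ciita, Ifngr2, a receptor chain, rose by 0.45 ± 0.12 (adjusted p = 0.0187). Irf1, a factor that acts on the Ciita promoter, was at 0.78 ± 0.30 (adjusted p = 0.0955), and Jak1 and Irf2, the highest of the list, were at -0.10 ± 0.09 and 0.13 ± 0.08. Ifng had no UMI in microglia-like nuclei.

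In the list named co-stimulation Cd274 rose by 2.36 ± 0.40 (adjusted p = 0.00145). It encodes PD-L1, which restrains T cells and is not itself co-stimulatory. Cd86 rose by 0.42 ± 0.10 (adjusted p = 0.0106), while Icosl at 0.22 ± 0.18 and Cd80 at 0.02 ± 0.19 did not pass. Lag3, a receptor that binds class II and is also expressed by microglia, rose by 1.31 ± 0.28 (adjusted p = 0.00500), from 23.6 ± 7.39 to 56.7 ± 21.1 CPM. Ctla4, the other gene with the highest level in the list of receptors on T cells, was at 1.71 CPM and was not tested. In the comparison of P301S Cgas+/+ with Cgas+/+ and in the 2 comparisons of the Cgas labels none of the 23 genes was called.

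**Figure D5:**
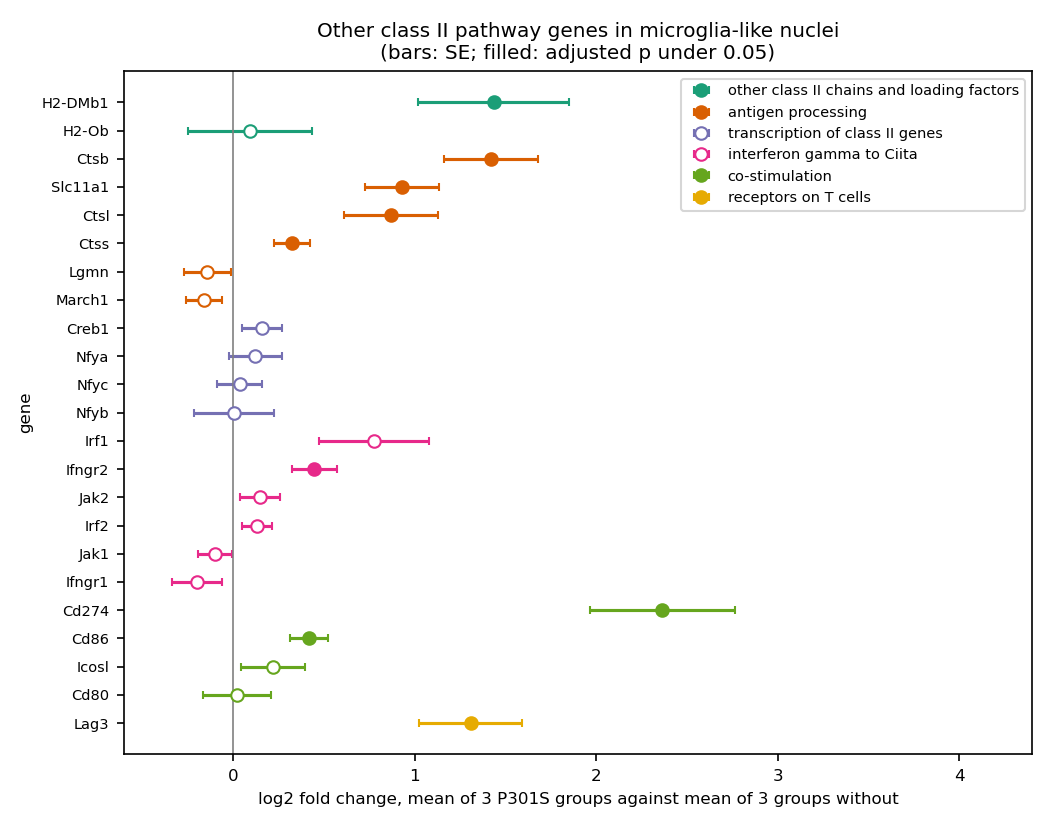
Log2 fold changes (x axis) of the 23 tested genes of the class II pathway other than the 6, colored by list, in microglia-like nuclei of P301S mice against mice without the transgene, averaged over Cgas genotypes. Bars give 1 SE and filled points an adjusted p under 0.05, and the 9 filled points run from 0.32 (Ctss) to 2.36 (Cd274).

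Across mice, the genes whose level in microglia-like nuclei ranked most like that of Cd74 among the other 9621 genes tested were Cybb (Spearman's rho of 0.93 over 27 mice), Oas1a (0.92), Myo1f (0.90), Usp18, Tor3a, Sh3pxd2b, Tnfsf8, Cd274, Lag3 and Galnt7 (0.89 each). The rho of H2-Ab1, H2-Aa, H2-Eb1 and Ciita with Cd74 was 0.95, 0.94, 0.92 and 0.90, and that of H2-DMa was 0.56. Within the 18 P301S mice rho ran from 0.75 (Usp18) to 0.91 (Cybb) over these 10 genes, and was 0.95 for Ciita and 0.43 for H2-DMa. All values share libraries and depth, the mice fall into those with and without the transgene, and the values are given as descriptions.

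The level of Cd74 in microglia-like nuclei was set beside the number of T cell-like nuclei. These held Cd8a, a marker of CD8 T cells, at 79.9 CPM, and their level of Cd4 is not given here. Their number is therefore not a count of CD4 T cells. T cell-like nuclei numbered 0 to 4.97 per 1000 kept nuclei in P301S mice and 0 to 1.24 in the others. Over all 27 mice Pearson's r between the log2 values was 0.58 (permutation p = 0.00164) and Spearman's rho 0.61 (permutation p = 0.00104), which includes the difference between mice with and without the transgene. In the 9 mice without the transgene the sign was opposite, with r at -0.19 (exact permutation p = 0.606) and rho at -0.31 (exact permutation p = 0.404). Within the 18 P301S mice r was 0.51 (permutation p = 0.0331) and rho 0.38 (permutation p = 0.116), and without the 2 mice farthest from the median r was 0.35 (permutation p = 0.180), so r kept its sign but no longer passed. It was the 1 relation of this kind computed. In the libraries of Cell Ranger 3.0.2 r was 0.82 over 6 P301S mice (exact permutation p = 0.0819) and in those of 3.1.0 it was 0.43 over 12 P301S mice (permutation p = 0.160).

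Summed over all kept nuclei, whatever their class, P301S mice averaged over Cgas genotypes had higher Cd74 (log2 fold change 4.65 ± 1.04, adjusted p = 0.0301, edgeR), H2-Aa (4.75 ± 1.26, adjusted p = 0.0486) and H2-Ab1 (3.76 ± 1.001, adjusted p = 0.0493), 3 of 6 genes where 1.42% of 19957 genes rose. H2-Eb1 at 2.83 ± 0.91 (adjusted p = 0.0943) did not pass, nor did Ciita at 0.40 ± 0.27 and H2-DMa at -0.23 ± 0.16, the genes with most UMIs in neurons. With the Cell Ranger version as a block only Cd74 was called, where 0.616% of genes rose, and without a filter on low counts 1 of the 6 genes was called, where 0.766% rose. Of the 27 refits that left out 1 mouse 19 called fewer than 3, with 0.0293% to 1.84% of genes higher, against 1.25% to 2.69% in the other 8. In such sums, more nuclei of a class and more RNA per nucleus cannot be told apart. P301S Cgas+/+ against Cgas+/+, both comparisons of the Cgas labels and the sex comparison called none of the 6 in all kept nuclei, where 0.0207%, 0.00% and 8.62% of genes were called.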

How the data were processed

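Single nuclei from 27 mouse hippocampi had been captured with 10x Genomics 3′ chemistry. The deposited matrices hold raw UMI counts per gene and nucleus, which the authors made with Cell Ranger against mm10, counting reads on unspliced transcripts too. The file headers name version 3.0.2 for 12 libraries and 3.1.0 for 15. No column of per-sample values was left unused.

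The nuclei kept had 200 to 4000 genes and no more than 5% of UMIs from mitochondria, following the study's limits, and doublets were removed by Scrublet score at 0.8% per 1000 barcodes, leaving 204852 nuclei. These were clustered in scanpy 1.11.5 (Leiden, leidenalg 0.10.2, resolution 1) without the 6 genes and named by marker lists, with 11573 nuclei left unnamed. The limit on a competing name (85% of the best score) was revised once, when the names and top genes of the clusters were known but no groups had been compared. Immune nuclei were clustered again after macrophages had not separated, and the rule for microglial states was set after levels by subcluster had been seen. UMIs were summed per mouse and tested with edgeR 4.0.16 (TMM, filterByExpr, robust quasi-likelihood fit) in R 4.3.3, with sex as a covariate. The comparisons of the P301S groups and Cgas+/+ used 23 mice and those averaged over Cgas genotypes all 27. DESeq2 1.42.0, no filter on low counts, no sex covariate, the Cell Ranger version as a block, all immune nuclei, 2 groups alone and leaving out each mouse were alternatives, and leaving out 3 microglia-like subclusters was one added after seeing the data. The scripts were tested on simulated counts with 200 changed genes. CPM is UMIs per 1000000 UMIs of the same nuclei. Microglia-like nuclei held 266686 to 1882070 UMIs per mouse. Intervals are exact at 95% and cover counting error only.

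Named genes are the 6 genes, all of them in each comparison, those of 6 pathway lists that were called or had the 2 highest levels in their list, and the 10 most like Cd74. Some listed genes are not reported here, and counts over lists leave them out. The members and lists were chosen with earlier results of these data known. Of 31053 gene IDs, 30934 matched GENCODE vM21.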

Additional observations from a re-analysis of the deposited data

Results flagged for a closer look

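Over 48 sets of values, 16 had a highest mouse that stood apart from its group by Dixon's criterion. The sets were each of the 6 genes in each of the 4 groups of 4 or more mice, in microglia-like and in all kept nuclei. Chance gives about 1 in 20 only for independent, normally distributed sets. These sets share mice, nuclei and genes that vary together, so the 16 cannot be set against that rate. P301S Cgas+/- replicate 4 stood apart in microglia-like nuclei for Cd74 (503 CPM, next 134), H2-Ab1 (132 CPM, next 37.5) and H2-Eb1 (109 CPM, next 21.1). The same mouse stood apart in all kept nuclei for Cd74 (14.8 CPM), H2-Aa (3.36 CPM), H2-Ab1 (3.85 CPM) and H2-Eb1 (3.26 CPM). P301S Cgas+/+ replicate 3 stood apart in microglia-like nuclei for H2-Aa (228 CPM, next 84.8) and H2-Ab1 (234 CPM, next 85.8), and in all kept nuclei for H2-Aa (9.56 CPM) and H2-Ab1 (10.1 CPM). P301S Cgas-/- replicate 2 stood apart for H2-Eb1 in microglia-like nuclei (114 CPM, next 40.8). Among mice without the transgene, Cgas+/+ replicate 5 held the 1 UMI of H2-Aa in microglia-like nuclei (1.99 CPM) and stood apart in all kept nuclei (0.427 CPM), and Cgas+/+ replicate 4 stood apart for H2-DMa (11.8 CPM in microglia-like nuclei, 2.58 CPM in all kept nuclei).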

How the results depend on the processing

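No paired analysis was possible because the labels give no replicate numbers and the numbers used here only name the mice. In microglia-like nuclei the comparison averaged over Cgas genotypes called 0 to 5 of the 6 genes when 1 mouse was left out. In the refits without Cgas+/- replicate 2 and without Cgas-/- replicate 1, which called none of the 6, 2.28% and 3.75% of genes rose. The averaged comparison called 4 in all immune nuclei, where 7.43% of genes rose. P301S Cgas+/+ against Cgas+/+ called 5 by DESeq2, where 2.69% of genes rose, and 5 without a filter on low counts, where 2.98% rose. With 1 mouse left out it called 0 to 1, and in the refit without P301S Cgas+/+ replicate 2, which called 1, 3.59% of genes rose. P301S Cgas+/- against P301S Cgas+/+ called 3 without the filter, where 0.0931% of genes fell. The sex comparison called 1 without the filter, where 123 of 21491 genes were called. In all kept nuclei the averaged comparison called 1 without the filter, where 0.766% of genes rose, and 1 with the version as a block, where 0.616% rose. With 1 mouse left out it called 0 to 3, where 0.0293% to 2.69% rose. P301S Cgas+/+ against Cgas+/+ called 3 by DESeq2, where 1.42% rose. The sex comparison called 1 by DESeq2, where 2530 of 19291 genes were called. It called 0 to 1 with 1 mouse left out, beside 8.62% of genes called with all mice. The cause was not tested.

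The log2 fold change of P301S Cgas-/- against P301S Cgas+/+ changed sign in the 3.0.2 libraries alone, to 0.48 for H2-Aa, 0.72 for H2-Ab1, 0.85 for H2-Eb1, 0.45 for Cd74 and 0.084 for Ciita, and for H2-DMa to -0.030 without the sex covariate and -0.43 in the 3.1.0 libraries alone. With 1 mouse left out it ran from -1.03 to 0.073 for H2-Aa, -0.69 to 0.42 for H2-Ab1, -1.004 to 0.19 for H2-Eb1, -0.19 to 0.24 for H2-DMa, -0.57 to 0.35 for Cd74 and -0.68 to 0.24 for Ciita, and for P301S Cgas+/- it ran from -2.04 to 0.080 for H2-Ab1, -2.50 to -0.27 for Cd74, -2.59 to -0.27 for H2-Eb1, -2.17 to -0.11 for H2-Aa, -2.09 to -0.38 for Ciita and -0.85 to -0.33 for H2-DMa.

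The relation of Cd74 to T cell-like nuclei gave r of -0.19 and rho of -0.31 in the 9 mice without P301S, 0.35 and 0.26 in the P301S mice without the 2 farthest, 0.82 and 0.49 in P301S mice of the 3.0.2 libraries, 0.43 and 0.44 in those of the 3.1.0 libraries, and rho of 0.38 in the 18 P301S mice.

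Counts over all genes also moved in several comparisons. P301S Cgas+/+ against Cgas+/+ called 0 genes in microglia-like nuclei by edgeR, 292 by DESeq2 and 840 without the filter, and 4 and 281 by edgeR and DESeq2 in all kept nuclei. The averaged comparison in all kept nuclei called 425 by edgeR, 1111 by DESeq2 and 263 with the version as a block. The sex comparison called 8, 37 by DESeq2 and 123 without the filter in microglia-like nuclei, and 1662, 2530 by DESeq2 and 18 with the version as a block in all kept nuclei. Without the filter P301S Cgas-/- and P301S Cgas+/- against P301S Cgas+/+ called 21 and 30 genes in microglia-like nuclei.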
